A study of Mus musculus with 16 samples.

Results

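Myc and ribosome biogenesis genes were followed in mouse bone marrow-derived macrophages turning into osteoclasts. The members are a list of 40 genes: Myc, and genes whose products transcribe ribosomal RNA or process it and assemble it into ribosomal subunits. A gene was read from the array feature that is annotated with its symbol alone, and where several features qualified, from the one with the highest mean over the 16 arrays. In this way 37 of the 40 were measured, among 22180 genes measured in all. Fbl, Tsr1 and Mrto4 had no such feature and are not analysed here. All 37 measured members were bright enough to be tested, among 15526 genes tested. The macrophages came from the bone marrow of male C57BL/6 mice aged 5 weeks and were profiled on 16 one-colour arrays. At 0 h, 2 arrays held cells given M-CSF and DW, the labels' name for the control treatment, without RANKL, the cytokine that starts osteoclast formation. The DW arm then had M-CSF, RANKL and DW for 3, 6, 12, 24, 48 or 72 h, and the αKG arm had M-CSF, RANKL and 1 mM dimethyl α-ketoglutarate, an esterified form of the citric acid cycle metabolite α-ketoglutarate, for 0.5, 1, 3, 6, 12, 24, 48 or 72 h, with 1 array for each arm and time. Whether the arrays stand for separate cultures or mice is not stated in the labels, and their spread may be technical. The p-values cover only the spread among arrays, which except at 0 h also holds differences between arms or times. Values are on a log2 scale, where a difference of 1 is a doubling.

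Myc is a transcription factor that binds DNA as a dimer with Max, most often at the E-box, and promotes cell growth. Genes for the making of ribosomes are among its best-known targets. RNA polymerase I copies the ribosomal DNA in the nucleolus, small nucleolar ribonucleoproteins (snoRNPs) guide chemical modification of the transcript, and separate sets of assembly factors then build the small and the large subunit. Myc has been described as induced by RANKL in osteoclast precursors. Of the 37 measured genes, 1 is Myc, 2 encode RNA polymerase I subunits, 6 belong to snoRNPs, 4 encode abundant nucleolar proteins, 10 act on the small subunit and 14 on the large subunit.

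The E-box CACGTG, which reads the same on both strands, was searched for in the RefSeq promoter windows of the members (GRCm38.p6, 250 bases before to 50 bases after the start of the gene, 300 bases in all). It was present in 6 of the 32 measured members with a window (18.8%), in 14 of the 76 other ribosome biogenesis genes with one (18.4%), in 10.7% of the tested genes with one and in 8.09% of all genes with one. Pes1 holds it at base 3 of the gene. Of the 6, the 5 with the largest 12 h difference are shown, since they carry the match, with the E-box in capitals, 5′ to 3′ on the strand of the gene. It begins 60 bases before the start of Nop2, and at base 18 of Wdr43, 29 of Ltv1, 38 of Pno1 and 24 of Nle1. Here a match is a description of the letters, not of binding.
Nop2: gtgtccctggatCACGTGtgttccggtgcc
Wdr43: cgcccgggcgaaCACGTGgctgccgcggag
Ltv1: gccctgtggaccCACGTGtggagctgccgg
Pno1: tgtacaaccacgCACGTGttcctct
Nle1: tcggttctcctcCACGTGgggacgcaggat
The stretches lie at chr6:125131811-125131840 and chr17:71616220-71616249 on the plus strand and at chr10:13193092-13193121, chr11:17211540-17211564 and chr11:82908355-82908384 on the minus strand. Nop2 has the E-box before its start, so the whole 250 bases upstream (chr6:125131633-125131882, plus strand) are given to show its setting.
Nop2 upstream: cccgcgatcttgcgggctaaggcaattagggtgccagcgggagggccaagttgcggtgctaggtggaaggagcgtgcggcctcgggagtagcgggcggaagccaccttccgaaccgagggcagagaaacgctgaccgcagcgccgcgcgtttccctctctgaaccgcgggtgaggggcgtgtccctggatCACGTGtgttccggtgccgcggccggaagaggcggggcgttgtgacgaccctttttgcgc

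The arrays were even overall. Array medians lay between 4.84 and 4.93. The 37 genes differed between the 2 arrays at 0 h with an SD of 0.11, and by at most 0.26 (Bop1). Macrophage markers were high on every array (10 of 10 tested, mean level of the list 10.18 to 10.96), and lymphoid markers were low (3 of 9 tested, 4.08 to 4.37), as were stromal markers (8 of 10 tested, 5.01 to 5.25). Osteoclast markers went from a mean level of 5.61 and 5.60 at 0 h to 11.08 with DW and 9.26 with αKG at 72 h, while neutrophil markers went from 6.90 and 6.89 to 4.85 and 5.03 and progenitor markers from 6.13 on both arrays to 4.81 and 4.70. In bulk RNA, fewer cells of a type and less RNA per cell cannot be told apart, and whether these shifts of other cells play a part in the results for Myc and the ribosome biogenesis genes was not tested.

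**Figure D1:**
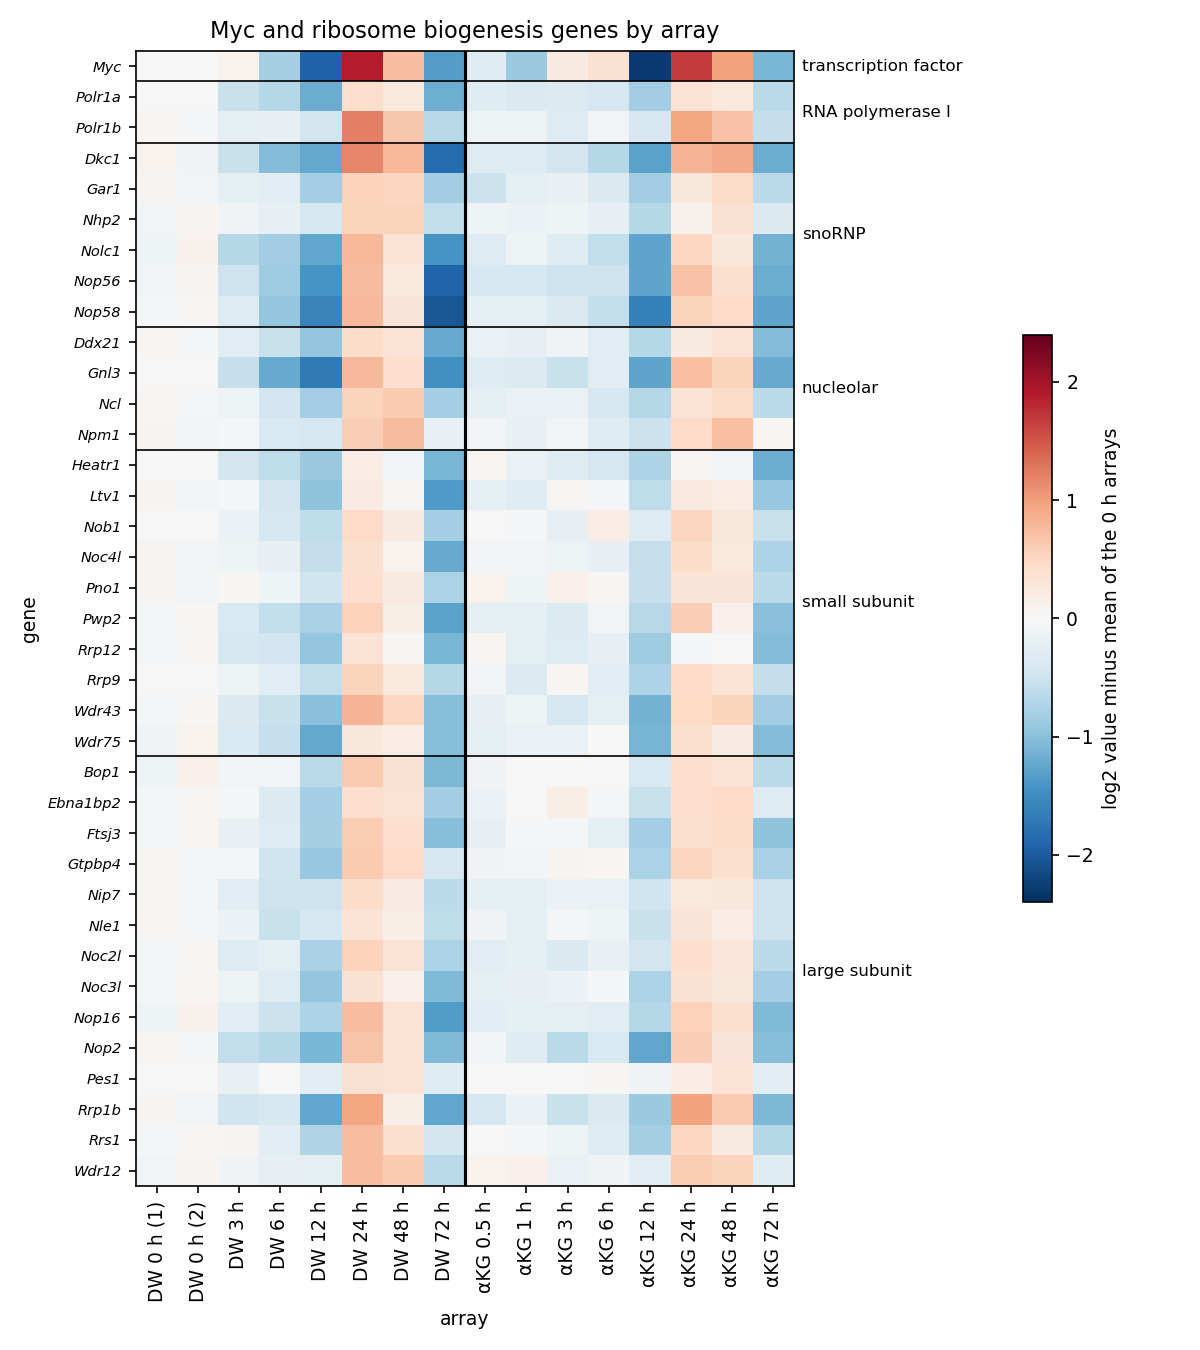
Each of the 37 genes (rows, by role) on each of the 16 arrays (columns), coloured by its log2 value minus the mean of the 0 h arrays (blue lower, red higher). In both arms the 12 h and 72 h columns are blue and the 24 h and 48 h columns red for nearly all genes; at 12 h all 37 lie below 0 h in each arm.

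At 12 h with RANKL the members were low, and at 24 h they were high, in both arms. Relative to the mean of the 0 h arrays, the median of the 37 genes was -0.82 at 12 h with DW and -0.74 with αKG, and 0.55 and 0.44 at 24 h. All 37 lay below 0 h at 12 h in each arm. At 24 h all 37 lay above it with DW and 36 with αKG, the exception being Rrp12 at -0.03. The median of all genes tested stayed within 0.02 of 0 on every array, which the normalization of the deposited values may itself set.

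The 12 h values were tested against the mean of 6 and 24 h, in a limma fit of time and arm on the 14 arrays of 0 h and the 6 times present in both arms, where the arms at one time supply the spread. All 37 genes were lower at 12 h (adjusted p from 3.91e-05 to 0.0267, Benjamini-Hochberg over all genes tested), where 8.87% of all genes tested were called lower. The median difference was -0.83, against -0.01 over all genes. In single arms, where there is no test, the difference was below 0 for 37 of 37 genes with DW (median -0.93) and 37 of 37 with αKG (median -0.80). The 24 h peak is part of this comparison: against 6 h alone, 16 of 37 genes were lower, with a median of -0.47, where 2.21% of all genes were called lower. By place among the 15526 genes ordered from the most negative, 32 of the 37 were within the lowest 5%, from Myc at place 7 to Nhp2 at place 694, and the other members followed with Pes1 last at place 2094.

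**Figure D2:**
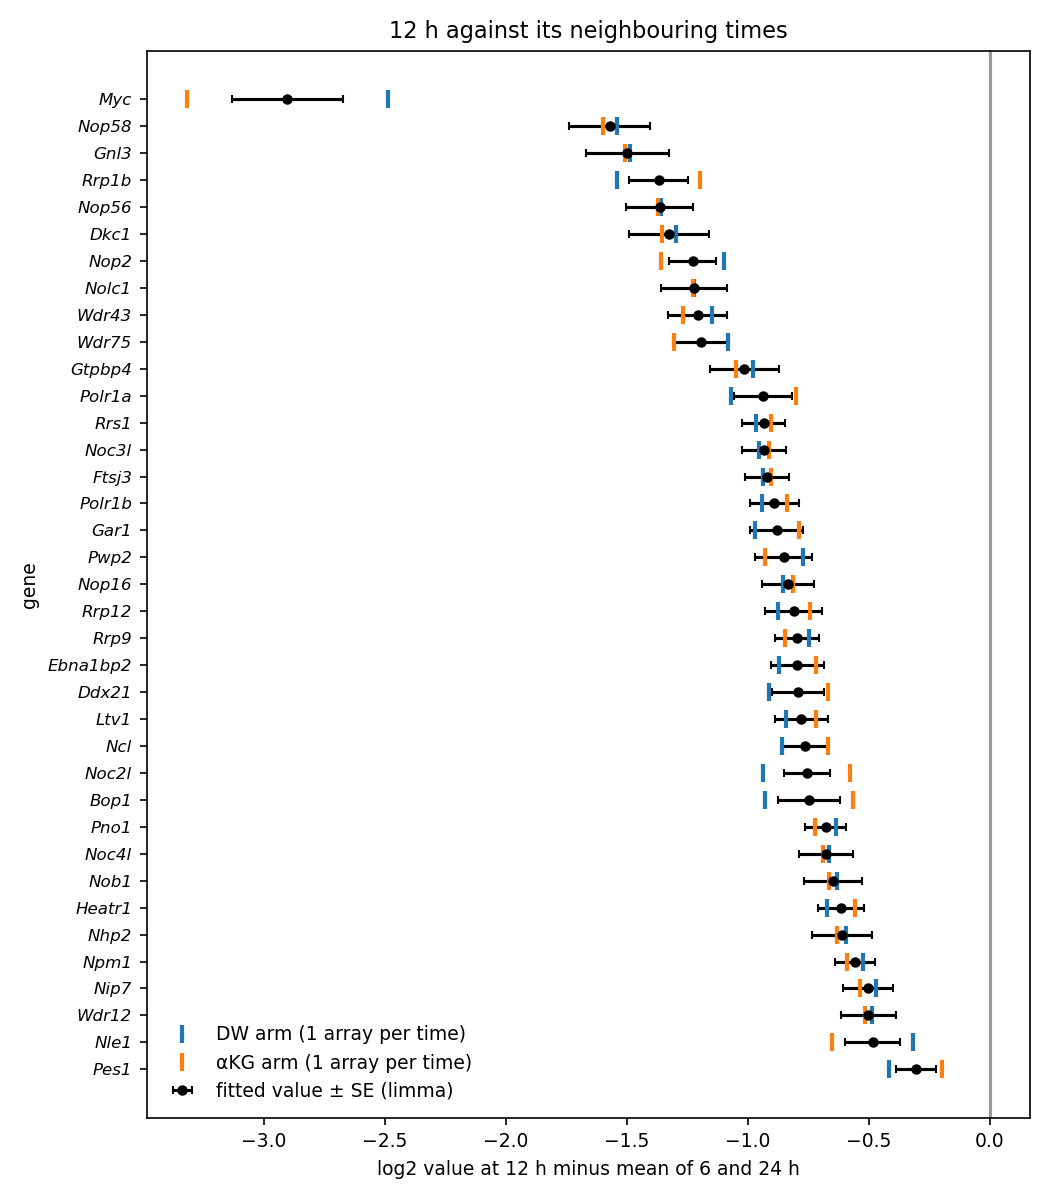
Difference in log2 value between 12 h and the mean of 6 and 24 h for each gene (rows), as the fitted value with its standard error (black) and as the value in the DW arm and in the αKG arm (1 array per time each). Every point is left of 0, from Myc at -2.90 to Pes1 at -0.31.

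Myc itself had the widest swing. The 0 h values of Myc were 8.63 and 8.62, and the DW arm gave 8.71 after 3 h, 7.83 after 6 h, 6.68 after 12 h, 10.51 after 24 h, 9.37 after 48 h and 7.30 after 72 h. With αKG they were 8.32 after 0.5 h, 7.74 after 1 h, 8.84 after 3 h, 8.99 after 6 h, 6.32 after 12 h, 10.30 after 24 h, 9.59 after 48 h and 7.53 after 72 h. The 12 h arrays were the lowest and the 24 h arrays the highest of both arms. At 12 h Myc was lower than the mean of 6 and 24 h by a log2 difference of -2.90 ± 0.23 (SE, limma adjusted p = 3.91e-05), and lower than at 0 h, with a difference of -2.22 ± 0.28 (adjusted p = 0.000416). From 12 to 24 h it rose by 3.90 ± 0.27 (adjusted p = 9.41e-06), place 2 from the top of all genes tested. At 6 h the arms stood apart, 7.83 with DW against 8.99 with αKG, so the size of the fall into 12 h differed on these single arrays, -1.15 with DW and -2.66 with αKG.

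RNA polymerase I makes the precursor of ribosomal RNA, and both measured subunits among the members, Polr1a and Polr1b, were low at 12 h and high at 24 h. On the 0 h arrays Polr1a read 7.95 and 7.94, and with RANKL and DW it read 7.40 (3 h), 7.26 (6 h), 6.75 (12 h), 8.37 (24 h), 8.19 (48 h) and 6.78 (72 h). The αKG arrays gave 7.66 (0.5 h), 7.60 (1 h), 7.62 (3 h), 7.54 (6 h), 7.12 (12 h), 8.30 (24 h), 8.20 (48 h) and 7.29 (72 h). Polr1a, the largest subunit, was below its 0 h values at 3, 6, 12 and 72 h and above them at 24 and 48 h in both arms. Polr1b was at 6.58 and 6.49 before RANKL and then, in the DW arm, at 6.30, 6.34, 6.09, 7.73, 7.19 and 5.87 at 3, 6, 12, 24, 48 and 72 h. In the αKG arm Polr1b was at 6.40, 6.41, 6.23, 6.47, 6.13, 7.47, 7.23 and 5.97 at 0.5, 1, 3, 6, 12, 24, 48 and 72 h. Polr1b, another core subunit, rose further above 0 h: its 24 h values were the highest and its 72 h values the lowest of each arm. The 12 h differences were alike, -0.94 ± 0.12 for Polr1a and -0.89 ± 0.10 for Polr1b (adjusted p = 0.000441 and 0.000258). Against 0 h, Polr1b was higher at 24 h by 1.07 ± 0.12 (adjusted p = 0.000354), whereas Polr1a was at 0.28.

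The snoRNP genes had the deepest fall of the role classes after Myc, with a median of -1.28 at 12 h against 6 and 24 h (6 of 6 lower). They include Nop56 and Nop58, core proteins of the box C/D particles that guide ribose methylation, and Dkc1, Gar1 and Nhp2 of the box H/ACA particles, where Dkc1 is the pseudouridine synthase. The 0 h values of Nop58 were 8.80 and 8.86, and the DW arm gave 8.52 after 3 h, 7.91 after 6 h, 7.22 after 12 h, 9.61 after 24 h, 9.13 after 48 h and 6.77 after 72 h. With αKG they were 8.59 after 0.5 h, 8.59 after 1 h, 8.49 after 3 h, 8.24 after 6 h, 7.20 after 12 h, 9.36 after 24 h, 9.30 after 48 h and 7.56 after 72 h. In each arm the 12 and 72 h values of Nop58 lay more than 1 below those at 0 h, and the 24 and 48 h values above them. On the 0 h arrays Nhp2 read 8.31 and 8.43, and with RANKL and DW it read 8.28 (3 h), 8.17 (6 h), 7.94 (12 h), 8.90 (24 h), 8.89 (48 h) and 7.77 (72 h). The αKG arrays gave 8.26 (0.5 h), 8.23 (1 h), 8.26 (3 h), 8.17 (6 h), 7.69 (12 h), 8.47 (24 h), 8.73 (48 h) and 8.02 (72 h). Nhp2 ran through a narrower range and was again lowest at 12 and 72 h in both arms. The 12 h differences were -1.57 ± 0.17 for Nop58 (adjusted p = 0.000180) and -0.61 ± 0.12 for Nhp2 (adjusted p = 0.0063). Between them lay Nop56 at -1.37 (3 features on the array, all negative in this comparison in each arm), Dkc1 at -1.33, Nolc1, a chaperone of snoRNPs, at -1.22 and Gar1 at -0.88. Against 0 h the features of Nop56 did not agree at 6, 12 and 72 h, and the values tested are from the brightest. At 12 h its dimmest feature read 6.46 with DW, above its 0 h values of 6.31 and 6.23, and 5.86 with αKG, below them. The middle feature read 6.48 with DW, below its 0 h values of 6.80 and 6.66, and 6.70 with αKG, between them.

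Among the nucleolar proteins, 4 of 4 were lower at 12 h, with a median of -0.78. Gnl3 was at 8.50 and 8.47 before RANKL and then, in the DW arm, at 7.93, 7.27, 6.78, 9.26, 8.91 and 7.04 at 3, 6, 12, 24, 48 and 72 h. In the αKG arm Gnl3 was at 8.18, 8.15, 7.95, 8.24, 7.21, 9.20, 9.02 and 7.27 at 0.5, 1, 3, 6, 12, 24, 48 and 72 h. Gnl3, the GTPase nucleostemin, was lowest at 12 and 72 h, and its 6 h values differed between arms in the way those of Myc did. The 0 h values of Npm1 were 10.06 and 9.93, and the DW arm gave 9.95 after 3 h, 9.63 after 6 h, 9.58 after 12 h, 10.58 after 24 h, 10.75 after 48 h and 9.82 after 72 h. With αKG they were 9.93 after 0.5 h, 9.81 after 1 h, 9.94 after 3 h, 9.70 after 6 h, 9.48 after 12 h, 10.45 after 24 h, 10.72 after 48 h and 10.03 after 72 h. Npm1, nucleophosmin, had its highest values at 48 h rather than 24 h, and at 72 h it was the nearest of the members to its 0 h level in each arm. Neither trait held for its dimmer feature. That feature was highest at 24 h, at 7.06 with DW and 7.04 with αKG, against 6.82 at 48 h in each arm. At 72 h it read 5.62 with DW and 6.11 with αKG, below its 0 h values of 6.67 and 6.32. On the 0 h arrays Ncl read 9.85 and 9.75, and with RANKL and DW it read 9.68 (3 h), 9.35 (6 h), 8.99 (12 h), 10.34 (24 h), 10.42 (48 h) and 8.99 (72 h). The αKG arrays gave 9.57 (0.5 h), 9.65 (1 h), 9.64 (3 h), 9.41 (6 h), 9.11 (12 h), 10.15 (24 h), 10.24 (48 h) and 9.18 (72 h). Ncl, nucleolin, was at its lowest at 12 and 72 h in both arms, at nearly equal values. The 12 h differences were -1.50 ± 0.17 for Gnl3 (adjusted p = 0.000258), -0.56 ± 0.08 for Npm1 (adjusted p = 0.00102) and -0.76 ± 0.09 for Ncl (adjusted p = 0.000349). Ddx21, an RNA helicase with 2 features that were both negative in each arm, was at -0.79.

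Of the small-subunit factors, 10 of 10 were lower at 12 h against 6 and 24 h, with a median of -0.79 and a range from -1.21 to -0.61. Wdr43 was at 8.93 and 8.998 before RANKL and then, in the DW arm, at 8.63, 8.42, 7.96, 9.79, 9.46 and 7.95 at 3, 6, 12, 24, 48 and 72 h. In the αKG arm Wdr43 was at 8.76, 8.84, 8.55, 8.76, 7.83, 9.45, 9.50 and 8.12 at 0.5, 1, 3, 6, 12, 24, 48 and 72 h. Wdr43, a component of the small-subunit processome whose E-box is shown above, was highest at 24 h with DW and at 48 h with αKG, where 24 and 48 h were nearly equal. The 0 h values of Heatr1 were 8.62 and 8.58, and the DW arm gave 8.16 after 3 h, 7.99 after 6 h, 7.71 after 12 h, 8.78 after 24 h, 8.53 after 48 h and 7.50 after 72 h. With αKG they were 8.64 after 0.5 h, 8.45 after 1 h, 8.31 after 3 h, 8.19 after 6 h, 7.85 after 12 h, 8.63 after 24 h, 8.53 after 48 h and 7.41 after 72 h. Heatr1, of the same processome, was below 0 h at 12 and 72 h but near it at 24 and 48 h, so its course is one of troughs with little peak. The 12 h differences were -1.21 ± 0.12 for Wdr43 (adjusted p = 0.000132) and -0.61 ± 0.09 for Heatr1 (adjusted p = 0.00132). The late factors Ltv1, Pno1 and Nob1, of which Nob1 makes the last cut in the small-subunit RNA, were at -0.78, -0.68 and -0.65. Wdr75 was at -1.20, Pwp2 at -0.85, Rrp12 at -0.81, Rrp9 at -0.80 and Noc4l at -0.68.

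All 14 large-subunit factors were lower at 12 h, with a median of -0.81 and the widest range of the classes, from -1.37 to -0.31. On the 0 h arrays Rrp1b read 6.67 and 6.55, and with RANKL and DW it read 6.13 (3 h), 6.23 (6 h), 5.36 (12 h), 7.56 (24 h), 6.76 (48 h) and 5.36 (72 h). The αKG arrays gave 6.18 (0.5 h), 6.48 (1 h), 6.08 (3 h), 6.27 (6 h), 5.72 (12 h), 7.57 (24 h), 7.23 (48 h) and 5.54 (72 h). Rrp1b was lowest at 12 and 72 h with DW, at the same value, and lowest at 72 h with αKG. Pes1 was at 9.27 and 9.31 before RANKL and then, in the DW arm, at 9.12, 9.28, 9.05, 9.65, 9.62 and 9.002 at 3, 6, 12, 24, 48 and 72 h. In the αKG arm Pes1 was at 9.31, 9.29, 9.29, 9.32, 9.20, 9.48, 9.64 and 9.02 at 0.5, 1, 3, 6, 12, 24, 48 and 72 h. Pes1 covered a range of less than 1 in each arm, with 24 and 48 h above and 72 h below all other times. Its 12 h difference was -0.31 ± 0.08 (adjusted p = 0.0267), against -1.37 ± 0.12 for Rrp1b (adjusted p = 7.94e-05). Pes1 forms the PeBoW complex with Bop1 and Wdr12, which were at -0.75 and -0.50. Nop2, a methyltransferase of the large-subunit RNA, was at -1.23 ± 0.10 with an adjusted p of 3.91e-05. The GTPase Gtpbp4 was at -1.01, Rrs1 at -0.93, Noc3l at -0.93, the methyltransferase Ftsj3 at -0.92, Nop16 at -0.83, Ebna1bp2 at -0.80, Noc2l at -0.76, Nip7 at -0.50 and Nle1 at -0.48.

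**Figure D3:**
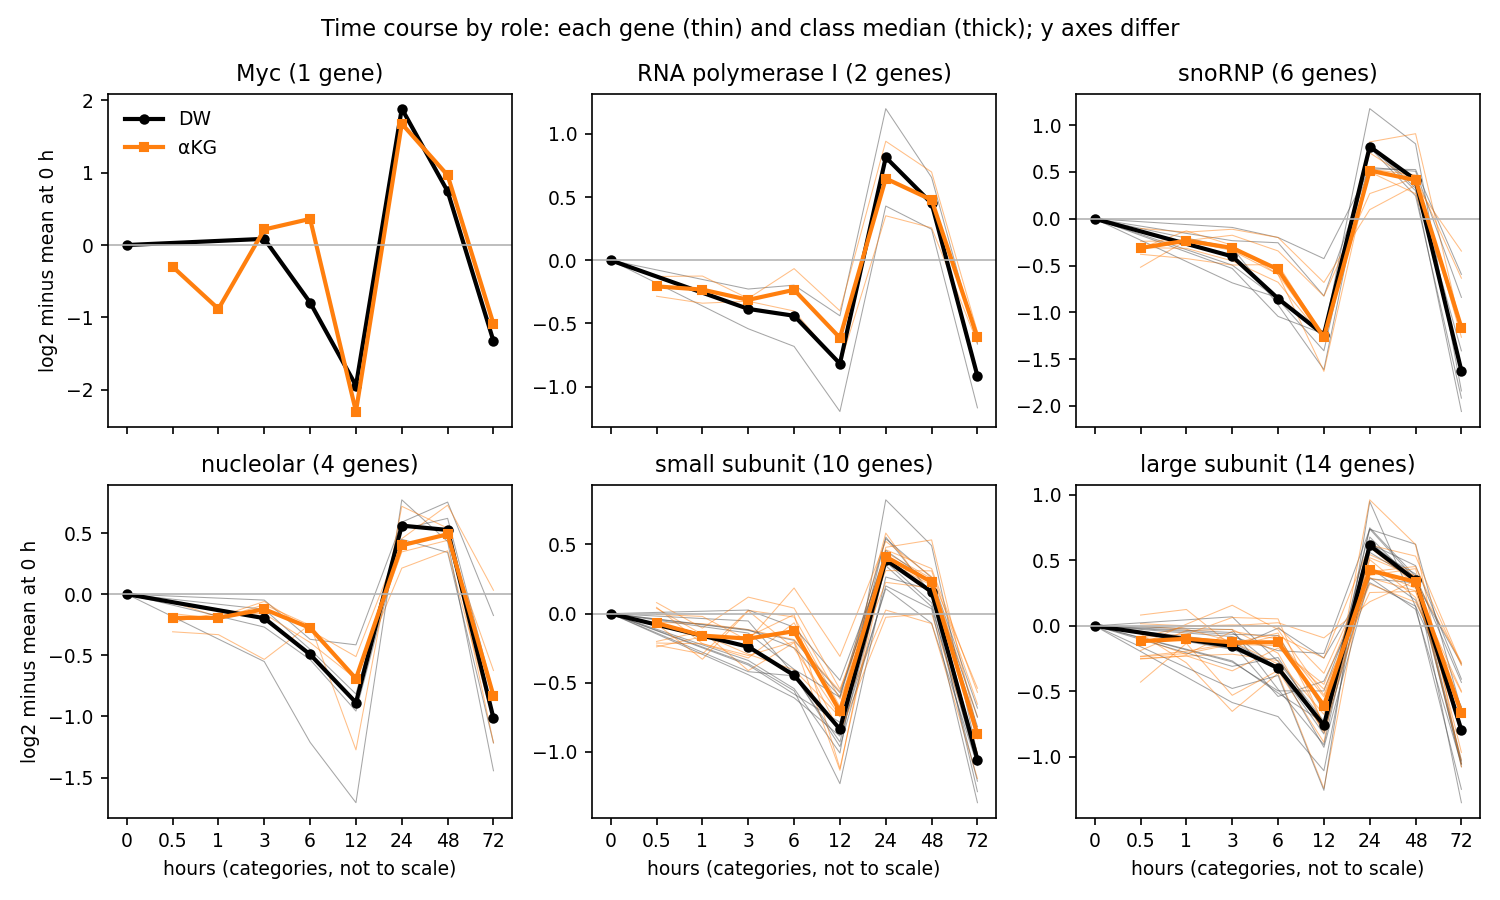
Log2 value minus the mean at 0 h over time, for Myc and for each role class, with thin lines for single genes and thick lines for the class median (DW black, αKG orange). Times are evenly spaced categories and the y axes differ between panels; each class median is lowest at 12 or 72 h and highest at 24 h, except the nucleolar class with αKG, which is highest at 48 h (0.49).

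Relative to 0 h, the fit of time and arm placed the falls and rises on the time course. These comparisons share the 0 h arrays, and the time estimates are adjusted for a constant αKG difference. At 3 h, 1 of 37 genes was lower, where 0.863% of all genes were called lower; it was Nop2 (-0.62 ± 0.12, adjusted p = 0.0160). At 6 h, 8 genes were lower (background 2.25%): Dkc1 (-0.93), Gnl3 (-0.87), Nop58 (-0.84), Nop56 (-0.79), Nolc1 (-0.76), Polr1a (-0.65), Nop2 (-0.53) and Heatr1 (-0.53). Of these 8, 4 belong to snoRNPs. Both early counts rest on single arrays: leaving out either 0 h array, or the DW array of that time, left 0 genes at 3 h and at 6 h, and leaving out the αKG array of that time left 0 at 3 h and 4 at 6 h (background 0.921%). At 12 h, 35 of 37 were lower (background 8.90%), with a median of -0.81, and Pes1 (-0.19, adjusted p = 0.248) and Wdr12 (-0.24, adjusted p = 0.279) missed the threshold.

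At 24 h, 16 of 37 genes were higher than at 0 h, where 4.28% of all genes were called higher, and none was lower. The median was 0.48. Myc was higher by 1.68 ± 0.28 (adjusted p = 0.00344), Polr1b by 1.07, Dkc1 by 0.93 and Rrp1b by 0.87, and the class counts were 7 of 14 for the large subunit, 3 of 6 for snoRNPs, 2 of 10 for the small subunit and 2 of 4 for nucleolar proteins. This count was sensitive to single arrays: it was 6 and 5 when one or the other 0 h array was left out, and 1 without the DW array of 24 h. At 48 h, 9 genes were higher (background 5.29%): Dkc1 (0.79), Npm1 (0.74), Polr1b (0.68), Wdr12 (0.56), Ncl (0.53), Wdr43 (0.51), Gar1 (0.49), Ftsj3 (0.41) and Rrs1 (0.37). Myc, at 0.76 ± 0.28, did not pass (adjusted p = 0.109). The 48 h count was 3 and 2 without one or the other 0 h array, 1 without the DW array and 4 without the αKG array of 48 h.

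The step from 12 to 24 h, a comparison added after the time course had been seen, does not use the 0 h arrays. All 37 genes rose (adjusted p from 6.22e-06 to 0.00651), where 11.7% of all genes tested were called higher, with a median of 1.21 against 0.00 over all genes. After Myc the largest rises were in Nop58 (2.28 ± 0.19), Dkc1 (2.26 ± 0.19), Gnl3 (2.24 ± 0.20), Nop56 (2.07 ± 0.16) and Rrp1b (2.03 ± 0.14), and the smallest was in Pes1 (0.44 ± 0.10). In single arms 37 of 37 genes were higher at 24 h with DW (median 1.35) and 37 of 37 with αKG (median 1.12).

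By 72 h, when osteoclast markers were at their highest, the members had fallen again. Against 0 h, 35 of 37 were lower (background 17.5%), with a median of -1.004. Nop58 was at -1.75 ± 0.20 and Nop56 at -1.67 ± 0.17, and Myc at -1.31 ± 0.28 (adjusted p = 0.00485). The Nop56 value is from its brightest feature, and its other features did not fall alike. With DW they read 7.41 and 6.53 at 72 h, above their 0 h values of 6.80 and 6.66 and of 6.31 and 6.23. With αKG they read 7.10, above 0 h, and 6.13, below it. The members that did not pass were Npm1 (-0.07, adjusted p = 0.645) and Nhp2 (-0.42, adjusted p = 0.0559). The dimmer feature of Npm1, not tested here, was below its 0 h values in both arms. The step from 48 to 72 h, also added after the time course had been seen, lowered all 37 genes (adjusted p from 3.78e-05 to 0.00292), where 13.0% of all genes tested were called lower. The median step was -1.21 against -0.01 over all genes. Dkc1 fell most (-2.37 ± 0.19), ahead of Myc (-2.06 ± 0.27), Nop58 (-2.05 ± 0.19), Nop56 (-1.87 ± 0.16) and Gnl3 (-1.82 ± 0.20), and Pes1 least (-0.62 ± 0.10). The single arms gave 37 of 37 lower each, with a median of -1.32 for DW and -1.09 for αKG.

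The phases named in the labels join times at which the members stand apart, 12 with 24 h and 48 with 72 h, so the phase comparisons show little of this course. In a limma fit of all 8 phase groups, 0 of 37 genes were called against 0 h in any phase, and 0 at an unadjusted p below 0.05. The background was 0.341% of all genes for DW at 3 and 6 h, 0.779% at 12 and 24 h and 6.64% at 48 and 72 h. With αKG it was 0% at 0.5 and 1 h, 0.502% at 3 and 6 h, 0.670% at 12 and 24 h and 1.43% at 48 and 72 h. For Myc at DW 12 and 24 h, this fit gave a difference of -0.03 with an SE of 1.34, since the group holds values of 6.68 and 10.51. At 0.5 and 1 h, times measured with αKG alone, where RANKL and αKG cannot be told apart, 32 and 34 of the 37 genes lay below 0 h with a median of -0.19 at each time, and Myc was at 8.32 and 7.74. With only the 2 groups compared in the fit, so that the spread came from those 4 arrays alone, more genes of all kinds were called: 1.98% of all genes were lower for DW at 3 and 6 h and 2.29% for αKG. Of the 37 members, 7 were lower for DW (Gnl3 at -0.88, Dkc1 at -0.79, Nolc1 at -0.76, Nop56 at -0.68, Nop2 at -0.64, Polr1a at -0.61 and Heatr1 at -0.53). For αKG 2 were lower (Dkc1 at -0.56 and Nop56 at -0.49), and only this αKG count was near the background.

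The αKG arm was low at 12 and 72 h and high at 24 h, as the DW arm was, and no constant difference between the arms passed the test. Over the 6 matched times, with time as a block, 0 of 37 genes differed between the arms (limma, smallest adjusted p = 0.217), where 0.399% of all genes were called. At an unadjusted p below 0.05 there were 7 of the 37, against 2061 of all 15526 genes tested. The median difference was 0.08 and 32 of 37 genes were above 0. Myc differed by 0.20 ± 0.16 (adjusted p = 0.668). The genes with the smallest p were Ltv1 (0.25 ± 0.08, higher with αKG at 6 of 6 times), Ebna1bp2 (0.24 ± 0.08, 5 of 6 times) and Polr1a (0.22 ± 0.09, 5 of 6 times). Rrs1 was lower with αKG at 6 of 6 times (-0.16 ± 0.06, adjusted p = 0.330), as read from the brighter of its 2 features. Its dimmer feature was higher with αKG at 6 h (6.05 against 5.67) and 48 h (6.31 against 6.20), and lower at the other matched times. For scale, the residual SD of the members in the fit of time and arm had a median of 0.13.

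By phase, with 3 residual degrees of freedom, 0 of 37 genes were called in any of the 3 phases. At 3 and 6 h the background was 0.161%, and Myc was higher with αKG by 0.64 ± 0.20 (adjusted p = 0.354). There 5 of the 37 genes had an unadjusted p below 0.05, against 1324 of all 15526 genes tested. The background at 12 and 24 h was 0.0966%, with 1 gene at an unadjusted p below 0.05, Nhp2 (-0.34 ± 0.12, adjusted p = 0.421), against 1452 of all genes tested. For 48 and 72 h the background was 4.27%, with 6 such genes among the 37, against 2979 of all 15526 genes tested. Those 6 were led by Nop58 (0.48 ± 0.16, adjusted p = 0.136), Nop56 (0.43 ± 0.15, adjusted p = 0.152) and Noc4l (0.32 ± 0.12, adjusted p = 0.173). The dimmer features of Nop56 were lower with αKG at 72 h, 7.10 against 7.41 with DW and 6.13 against 6.53. At 48 h they were 7.13 against 7.58 and 6.81 against 6.79. Without the 48 h pair, which leaves 1 array per arm in that phase and takes the spread from the other times, 3 genes were called higher with αKG (Nop58 at 0.79, Nop56 at 0.72 and Dkc1 at 0.65, adjusted p from 0.00791 to 0.0284), where 6.92% of all genes were called higher, so this count is near the background. Beside this, osteoclast markers were lower with αKG at 48 and 72 h for 10 of 10 genes (median -1.72), and whether that difference plays a part here was not tested.

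Array by array, with 1 array per arm and time and so no test, the arms differed most at 6 and 72 h. With αKG, 34 of 37 genes were higher at 6 h (median 0.25, Myc 1.16, Gnl3 0.96, Nob1 0.59), and 33 of 37 at 72 h (median 0.21, Nop58 0.79, Nop56 0.72, Dkc1 0.65). For Nop56 this is the brightest feature, and its other features were lower with αKG at 72 h. The counts of genes higher with αKG were 24 at 3 h, 22 at 12 h and 23 at 48 h, with medians of 0.06, 0.06 and 0.03. At 24 h the balance was the other way, 31 of 37 genes being lower with αKG (median -0.13). Of all genes tested, the share higher with αKG was 46.43% at 3 h, 49.18% at 6 h and 52.04% at 12 h. It was 48.05% at 24 h, 48.86% at 48 h and 53.12% at 72 h. Whether the αKG difference at 12 h stood apart from that at the other 5 times was tested for each gene: 0 of 37 genes were called, as was 0% of all genes, and 0 had an unadjusted p below 0.05. Myc had the most negative such difference of the members, -0.67 ± 0.41 (adjusted p = 1.00), and its αKG minus DW value at 12 h was -0.36.

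**Figure D4:**
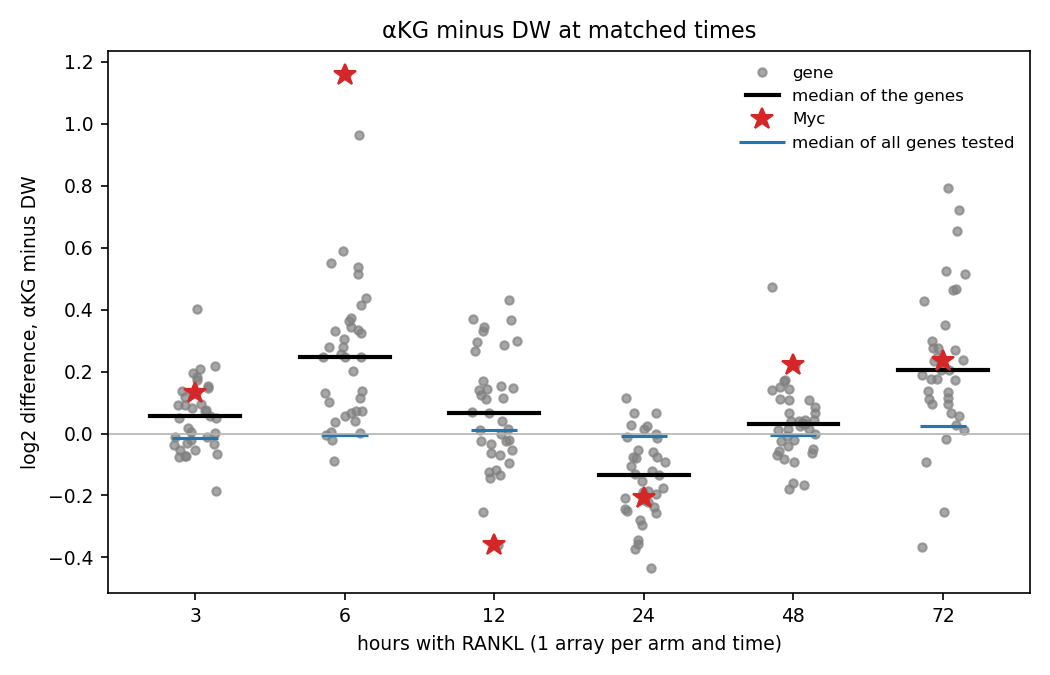
Log2 difference between the αKG and the DW array at each matched time for the 37 genes (grey points; Myc as a red star), with the median of the genes (black) and of all genes tested (blue). Points lie mostly above 0 at 6 and 72 h and mostly below 0 at 24 h, and Myc is at 1.16 at 6 h and -0.36 at 12 h.

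Genes outside the list but of the same pathway moved with it. Of 91 other ribosome biogenesis factors tested, 61 were lower at 12 h against 6 and 24 h (median -0.51), 71 rose from 12 to 24 h (median 0.76) and 75 fell from 48 to 72 h (median -0.74). Of all genes tested, 8.87%, 11.7% and 13.0% were called in these directions in turn. Mybbp1a, a nucleolar Myb-binding protein, had the smallest p of these in each comparison (-1.18 ± 0.12, 1.72 ± 0.13 and -1.57 ± 0.13, with adjusted p = 0.000124, 1.72e-05 and 5.93e-05). The rest of the RNA polymerase I machinery moved less: 3 of 10 genes, against 8.87% of all genes, were lower at 12 h (Rrn3 at -0.56, Polr1e at -0.53 and Ubtf at -0.39), 4 rose and then 4 fell. Polr1c, another polymerase subunit on that list, was at 7.49 and 7.61 at 0 h, at 7.74 with DW and 8.13 with αKG at 12 h, and at 7.87 and 7.96 at 72 h, above its 0 h values at both times. It was named after its values were seen. Cytosolic ribosomal proteins, the structural proteins of the ribosome, were at a median of -0.09 at 12 h with 2 of 62 lower (background 8.87%). From 12 to 24 h their median was 0.13 with 9 of 62 higher (background 11.7%). From 48 to 72 h it was -0.22 with 18 of 62 lower (background 13.0%). Their highest level was at 48 h, when 23 of 62 were higher than at 0 h (median 0.30, background 5.29%).

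Known Myc targets outside the ribosome pathway gave 18 of 30 lower at 12 h (median -0.57, background 8.87%), 22 higher from 12 to 24 h (median 0.94, background 11.7%) and 25 lower from 48 to 72 h (median -0.98, background 13.0%). Ppan stands in this list and among the other ribosome biogenesis factors. Srm, spermidine synthase, was at -1.61 ± 0.11, 2.26 ± 0.12 and -1.99 ± 0.12 in the same comparisons. The 0 h values of Srm were 9.45 and 9.47, and the DW arm gave 9.06 after 3 h, 8.78 after 6 h, 7.86 after 12 h, 10.32 after 24 h, 9.97 after 48 h and 7.80 after 72 h. With αKG they were 9.22 after 0.5 h, 9.18 after 1 h, 9.13 after 3 h, 9.02 after 6 h, 8.02 after 12 h, 10.09 after 24 h, 9.93 after 48 h and 8.12 after 72 h. The Srm values at 12 and 72 h were the lowest and those at 24 h the highest of both arms, as for Myc. Over the 6 matched times 1 of the 30 differed with αKG, where 0.399% of all genes were called in either direction. It was Tfrc, the transferrin receptor, which was lower (-0.71 ± 0.11, adjusted p = 0.0345).

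In the network of Myc partners and antagonists, 3 of 12 genes were higher at 12 h (background 8.93%) and 0 lower. Mxd4, which binds Max and represses genes at E-boxes, ran opposite to Myc. On the 0 h arrays Mxd4 read 6.45 and 6.78, and with RANKL and DW it read 6.56 (3 h), 7.31 (6 h), 8.51 (12 h), 5.57 (24 h), 6.62 (48 h) and 8.63 (72 h). The αKG arrays gave 6.96 (0.5 h), 6.88 (1 h), 6.64 (3 h), 6.95 (6 h), 8.47 (12 h), 5.66 (24 h), 6.32 (48 h) and 8.47 (72 h). It was highest at 12 and 72 h and lowest at 24 h in both arms. The difference at 12 h was 2.12 ± 0.13 (adjusted p = 1.32e-05), the step from 12 to 24 h was -2.87 ± 0.15 and that from 48 to 72 h 2.08 ± 0.15. Mlxip (0.55 ± 0.10) and Mxi1 (0.53 ± 0.12) were the other genes higher at 12 h. From 12 to 24 h 1 of the 12 rose (Mycl) and 3 fell (Mxd4, Mlxip and Max), where 11.5% of all genes fell, and from 48 to 72 h 4 rose, where 9.36% of all genes rose.

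Proliferation genes also fell at 12 h, with 5 of 23 lower against 6 and 24 h (median -0.54, background 8.87%). Against 0 h their median at 12 h was -0.71 with DW and -1.21 with αKG, beside -0.82 and -0.74 for the 37 genes. In the fit of time and arm, 9 of the 23 were lower at 12 h than at 0 h (median -0.96, background 8.90%). From 12 to 24 h 12 were higher and 1 lower (median 0.93, background 11.7% and 11.5%). From 48 to 72 h 18 were lower (median -1.31, background 13.0%). At 72 h their median against 0 h was -2.12 with DW and -0.80 with αKG, a wider gap between the arms than that of the 37 genes (-1.03 and -0.77). Whether a change in the share of cycling cells plays a part in the fall of the ribosome biogenesis genes was not tested. In the comparison of 12 h against 6 and 24 h, 8.93% of all genes were called higher. There 3 of 10 macrophage markers (Mertk, Adgre1 and Ptprc), 3 of 9 progenitor markers and 2 of 8 neutrophil markers were higher. So were 1 of 3 lymphoid markers and 2 of 5 erythroid and megakaryocyte markers, and none of these lists had a gene lower. Of the osteoclast markers 1 was higher (Nfatc1) and 1 lower (Mmp9) among 10, and of the stromal markers 1 of 8 was lower (Cdh5). The part of these cells in the 12 h result was not tested.

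**Figure D5:**
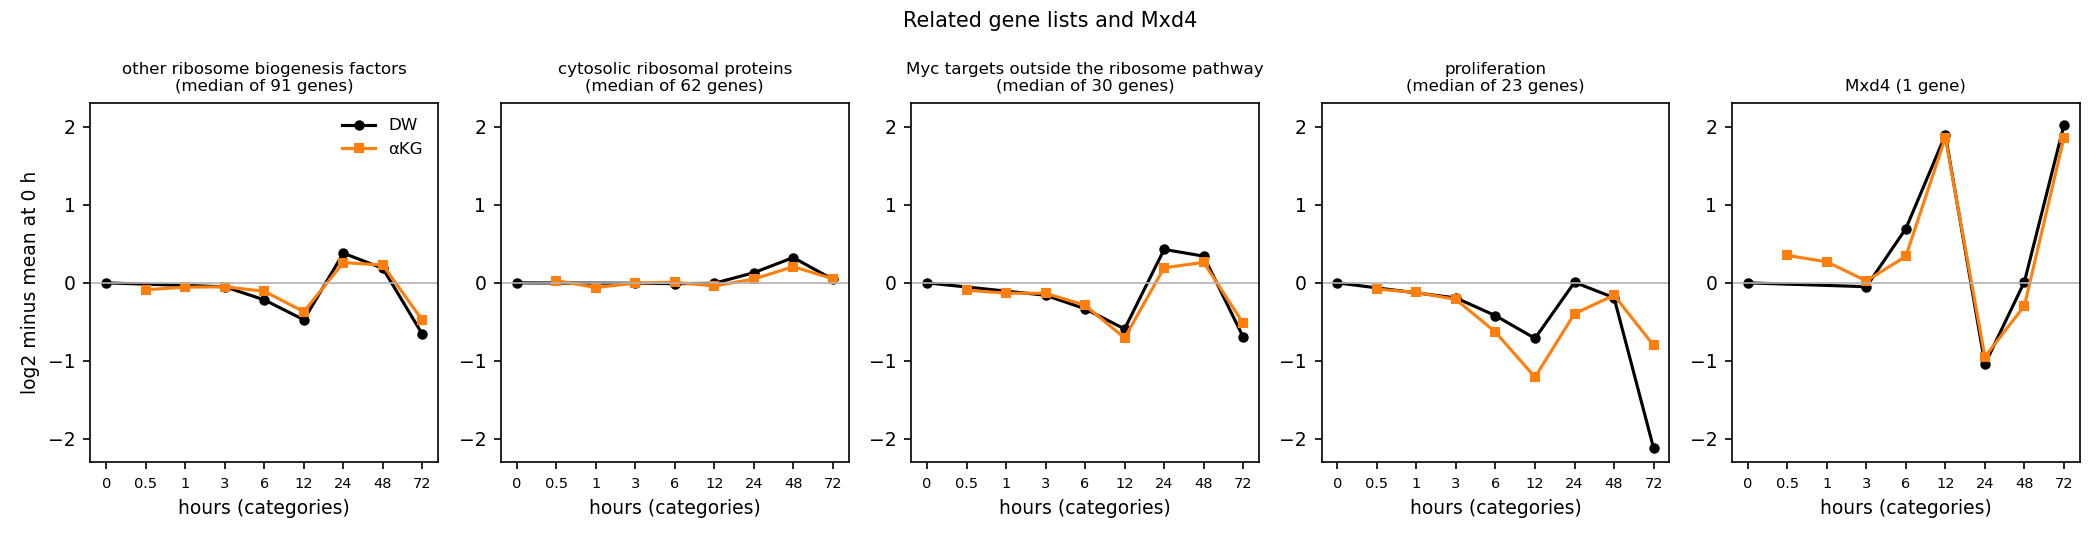
Log2 value minus the mean at 0 h over time (evenly spaced categories) in the DW arm (black) and the αKG arm (orange), as the median of 4 related gene lists and for the single gene Mxd4. Other ribosome biogenesis factors and Myc targets dip at 12 and 72 h, ribosomal proteins stay between -0.06 and 0.32, and Mxd4 peaks at 12 and 72 h.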

How the data were processed

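Per the labels, biotin-labelled total RNA was hybridised to 16 one-colour arrays. The deposited log2 values were taken unchanged. Their scale was inferred from their range (0.61 to 13.25). How the authors summarised and normalized them, and on which genome build, is not given in the sources used here, and a method that compresses differences would make the fold changes here too small. Of 33793 features, 23521 had 1 gene symbol, 1814 several and 8458 none, and several-symbol and unnamed features were left out. The dimmest 30% of the 22180 genes by mean were left out. Tests were limma 3.58.1 (R 4.3.3; lmFit, eBayes with an intensity trend), Benjamini-Hochberg over all genes tested and a threshold of 0.05. Fits were of 8 phase groups against 0 h, of time and arm (6 residual degrees of freedom), of αKG with time as a block (5), by phase (3) and at 12 h against other times (4). Time pairs the arms per the labels' titles, and the deviations of the arms at 1 time correlated across genes (r 0.50 to 0.75, best with the own time for 6 of 6). The members, role classes and 13 comparison lists were chosen with earlier results of these data known, so their direction is no independent support. Genes given array by array were Myc, Ncl, Npm1, Polr1b (Fbl was not measured) and, in each class, those with the largest and the smallest difference at 12 h, and Srm and Mxd4 had the smallest p of their lists there. Alternatives tried were other filters, normalizations, variance models, sample sets and each array or pair left out. The fits were tested on simulated data. The number of arrays, 1 per arm and time, limits the precision.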

Additional observations from a re-analysis of the deposited data

How the results depend on the processing

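The counts of members kept within 1.5 times of their value under every filter on dim genes, normalization, variance model and choice of feature tried, except that quantile normalization called 2 genes lower at 3 h instead of 1. The 12 h difference was called for 16 genes against 6 h alone instead of 37 (343 of all genes instead of 1377), and without the arm term 4 genes were lower at 6 h instead of 8. With only the 2 groups compared in the fit, 7 genes were called for DW and 2 for αKG at 3 and 6 h instead of 0, while the genes called in all rose from 53 to 775 and from 78 to 794 of 15526. The fits of αKG without the time block, that is with no replicate block, called 0 members, as did those with it. Leaving out 1 array gave 0 genes lower at 3 h, 0 to 4 lower at 6 h, 1 to 16 higher at 24 h and 1 to 4 higher at 48 h, and leaving out 1 pair gave 0 to 3 genes called for αKG at 48 and 72 h (3 without the 48 h pair, where 1882 of all genes were called). The cause of these changes was not tested. Other results were steadier: 25 to 29 genes were lower at 12 h against 0 h, 32 to 37 at 12 h against 6 and 24 h, and 31 to 34 at 72 h against 0 h, while 36 to 37 rose from 12 to 24 h and 37 fell from 48 to 72 h. Of 2728 values of single called genes under all alternatives, 2528 kept their call, 200 lost it and 0 reversed.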
